A study of Macaca fascicularis with 9 samples.

Results

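Cluster 10 is the smallest of the 7 groups of nuclei that the depositors named oligodendrocytes in single-nucleus RNA sequencing of the thalamus of 9 female cynomolgus monkeys. Its members are the nuclei that the deposited table of nuclei gives both the oligodendrocyte name and cluster number 10. They number 1919 of 61578 oligodendrocyte nuclei (3.12%) and of 79994 nuclei in all (2.40%). RNA molecules were counted by unique molecular identifiers (UMIs). The 9 animals fall into 3 groups of 3. The ASO animals received 4 mg of an antisense oligonucleotide against the noncoding RNA MALAT1, given once into the spinal fluid. The OTV animals were given OTV:MALAT1 into a vein at 30 mpk, as 4 biweekly doses, and the saline animals had saline by the same route and schedule. In all groups the tissue dates from 2 weeks past the final dose. The labels give no age, and replicate numbers are only names in accession order. Nuclei of 1 animal are not replicates, so every comparison of treatments was made over animals.

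Oligodendrocytes wrap axons in myelin, a stack of membrane rich in cholesterol, galactolipids and a few abundant proteins such as MOBP and MOG. Single-nucleus studies divide mature oligodendrocytes into states that grade into each other, often set apart by OPALIN and adhesion genes at one end and by other surface and enzyme genes at the other. MALAT1 is an abundant RNA of the nucleus, which an antisense oligonucleotide can direct to cleavage there. OTV is an oligonucleotide transport vehicle, a protein that carries the oligonucleotide across the blood-brain barrier by binding the transferrin receptor, encoded by TFRC.

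The markers measured went with the oligodendrocyte name. MBP, the marker given for the cluster, was not analysed here, and 16 of 18 other oligodendrocyte genes were measured. Their summed level was 15111 to 20531 counts per 1000000 UMIs (CPM) in cluster 10 and 14146 to 20060 CPM in the other oligodendrocyte nuclei of the same animals, higher in cluster 10 in 9 of 9 animals. Markers of the 4 other named types were low: the summed levels in cluster 10 were 1.23% of the level in the named OPCs for oligodendrocyte precursor genes, 1.15% of the astrocyte level for astrocyte genes, 0.591% of the myeloid level for microglial genes and 0.933% of the neuronal level for pan-neuronal genes. Of the narrower lists, some set cluster 10 less apart and others did not. The striatal neuron list summed to 0.183% of its level in the named neurons. The fibroblast, ependymal and mural lists summed to 0.166%, 2.05% and 4.64% of their levels in the nuclei named unknown. The excitatory neuron list summed to 102% of its level in the named neurons over pooled animals (104 against 102 CPM), with 0 to 53.9 CPM in the saline animals, 27.9 to 87.3 in the ASO animals and 163 to 241 in the OTV animals. The inhibitory list summed to 8.64%, with 19.0 to 64.4 CPM after saline, 56.8 to 89.6 after ASO and 15.8 to 18.3 after OTV. The lymphocyte list summed to 23.6% of its level in myeloid nuclei (36.2 against 153 CPM) and the endothelial list to 62.7% of its level in the nuclei named unknown (48.9 against 78.0 CPM). Myeloid and unknown nuclei are not named for the types of these lists, so such shares do not measure distance from those types. DRD1, a receptor of striatal neurons, and COL1A1, a fibroblast collagen, were at 0 in cluster 10 in all 9 animals.

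The animals did not contribute evenly. Cluster 10 had 288, 282 and 9 nuclei in the saline animals, 327, 339 and 199 in the ASO animals, and 238, 87 and 150 in the OTV animals. As a share of oligodendrocyte nuclei this was 3.34%, 3.20% and 0.838% in the saline animals, 3.35%, 3.20% and 2.81% in the ASO animals, and 3.29%, 3.13% and 2.67% in the OTV animals. Saline replicate 3 stood apart, with an exact 95% binomial interval of 0.384% to 1.58% for its share, and its 9 nuclei held 52546 UMIs against 940792 to 4827662 in cluster 10 of the other 8 animals. It was therefore left out of every gene-by-gene fit (a minimum of 10 nuclei), and the main values over 9 animals are given with and without it below. Without it the summed oligodendrocyte markers of cluster 10 ran from 15894 to 20531 CPM. Of the cluster 10 nuclei, 43 (2.24%) carried a barcode that also occurred in another library, against 1.90% of all nuclei, and no barcode occurred more than once within cluster 10.

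Nuclei of cluster 10 held more RNA molecules than the oligodendrocyte nuclei around them. The median nucleus held 9778.5, 11672 and 5201 UMIs in the saline animals, 11661, 13286 and 7456 in the ASO animals, and 13593, 10217 and 9060.5 in the OTV animals. The corresponding medians of the other oligodendrocyte nuclei were 5911, 6815 and 4162, then 5969, 7703 and 4896, then 6283.5, 5323 and 2514 UMIs. Cluster 10 was the deeper of the pair in all 9 animals, by a ratio of 1.25 (Saline replicate 3) to 3.60 (OTV replicate 3) with a median of 1.72. Among whole clusters the pooled median was 11308 UMIs in cluster 10, 8602 in cluster 5, 7149 in cluster 1, 7066 in cluster 3, 6026 in cluster 0, 4349 in cluster 2 and 3081.5 in cluster 8. Levels below are therefore given as CPM of the same nuclei, and shares of nuclei with a transcript are given after every nucleus was thinned to 1000 UMIs.

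The deposited doublet score, which runs from 0 to 0.865 over all nuclei and comes from a caller not given in the sources used here, was low in cluster 10. Its median was 0.000702, 0.000996 and 0.00291 in the saline animals, 0.000553, 0.000753 and 0.00104 in the ASO animals, and 0.00346, 0.00367 and 0.00120 in the OTV animals. The ratio to the median of the other oligodendrocyte nuclei ran from 1.00 to 2.95, with a median of 1.43, so by this measure cluster 10 was equal or higher in every animal. The mean score pointed the other way, being lower in cluster 10 in 8 of 9 animals and higher only in Saline replicate 3 (0.0953 against 0.0124). The share of nuclei scoring above 0.1 was lower in cluster 10 in 7 of 9 animals and higher in Saline replicate 3 and OTV replicate 1 (7.14% against 6.44%). Pooled over animals, 2.76% of cluster 10 nuclei scored above 0.1, against 4.40% in cluster 5, 4.39% in cluster 1, 8.68% in cluster 0 and 10.4% in cluster 3, but 0.394% in cluster 2 and 0.325% in cluster 8. In Saline replicate 3 that share was 22.2% of 9 nuclei. The deposited doublet column calls all 79994 nuclei singlets, and no further doublet removal was made here.

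**Figure D1:**
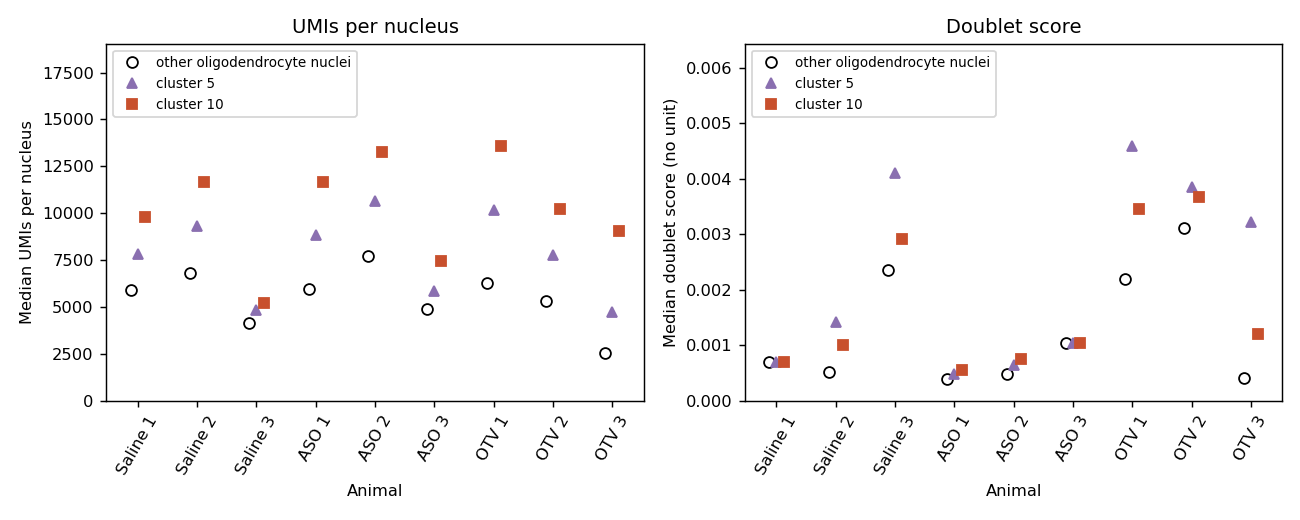
Median UMIs per nucleus (left) and median doublet score (right), both on linear axes from 0, in each of the 9 animals, for cluster 10 (squares), cluster 5 (triangles) and the other oligodendrocyte nuclei (open circles). The UMI median of cluster 10 lies above that of the other nuclei in all 9 animals, by a ratio of 1.25 to 3.60, while the doublet score medians of cluster 10 stay at or below 0.00367.

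Cluster 10 lay at the end of a graded order of oligodendrocyte clusters. In a coarser clustering in the same deposited table, all 1919 nuclei shared a cluster with 2153 nuclei of cluster 5. In the coarsest they joined all 4860 nuclei of cluster 5 and 7177 of the 7209 of cluster 3. That group also held 1774 of the 15849 nuclei of cluster 0, 4 of cluster 1 and 1 of cluster 8. OPALIN, a myelin transmembrane glycoprotein gene, averaged 797 CPM over the 9 animals in cluster 1, 745 in cluster 2, 613 in cluster 0, 554 in cluster 8, 357 in cluster 3, 197 in cluster 5 and 94.0 in cluster 10 (55.8 without Saline replicate 3). This order of clusters was chosen after the values were seen. The adhesion gene CADM2 followed it (3863 CPM in cluster 1, 553 in cluster 5 and 310 in cluster 10, or 161 without Saline replicate 3), and CNTN1 did apart from cluster 8 (1713 CPM in cluster 1, 657 in cluster 0, 691 in cluster 8, 53.5 in cluster 5 and 48.9 in cluster 10, or 33.6 without that animal). THSD7B, a thrombospondin-repeat gene, ran the opposite way, from 7.79 CPM in cluster 1 through 41.2 in cluster 3 and 104 in cluster 5 to 458 in cluster 10. The myelin gene MOG varied less over this order, with 871 CPM in cluster 1, 825 in cluster 3 and 708 in cluster 10.

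**Figure D2:**
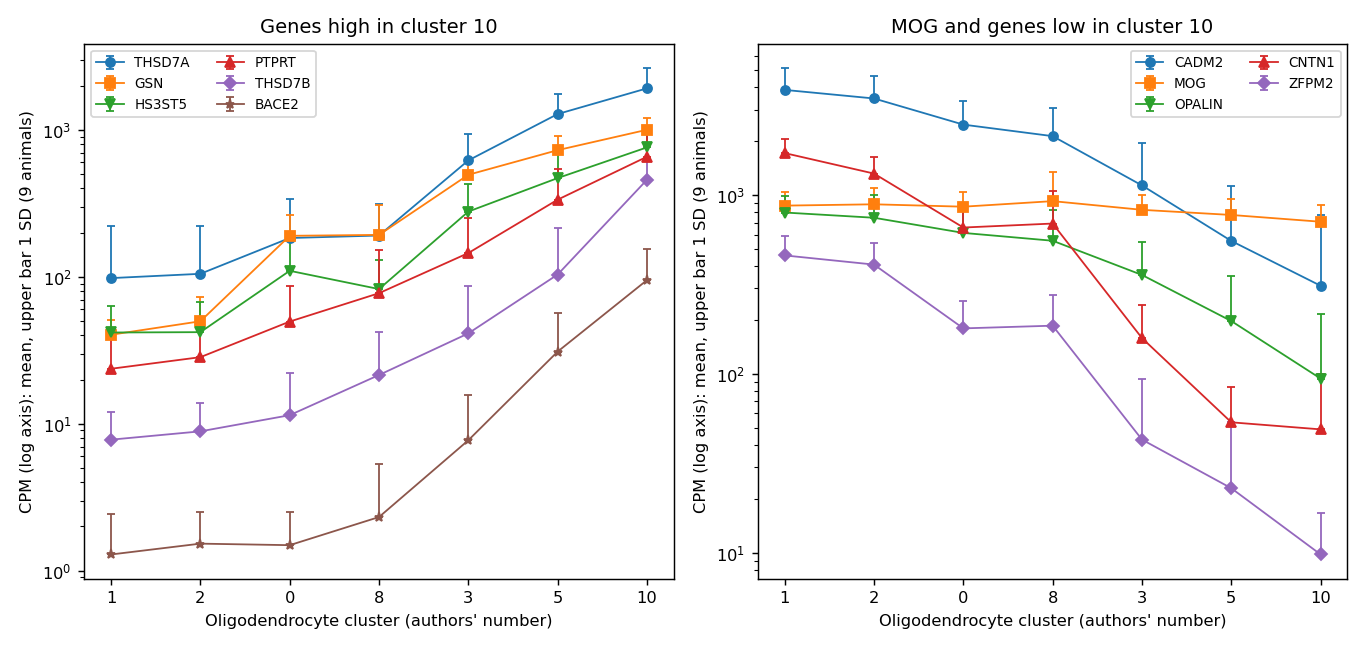
Mean CPM over 9 animals (log axis; the upper bar is 1 SD) in the 7 oligodendrocyte clusters in the order 1, 2, 0, 8, 3, 5 and 10, for 6 genes high in cluster 10 (left) and for MOG and 4 genes low there (right). The lines climb or fall through clusters 3 and 5 to cluster 10, OPALIN from 797 to 94.0 CPM and THSD7B from 7.79 to 458 CPM, while MOG is 871 CPM in cluster 1 and 708 in cluster 10.

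Across animals, a gene was counted when its level in cluster 10 differed at least 2-fold, in the same direction, from the other oligodendrocyte nuclei in all 9 animals, with at least 10 UMIs in the larger sum. The clustering itself used the expression of these nuclei, so the counts describe the cluster and were not tested. Of 12343 genes that could be counted, 59 were higher (0.478%) and 76 lower (0.616%), of which 54 and 60 have a symbol. In Saline replicate 3 few UMIs stood behind the rule. For 32 of the 76 lower genes fewer than 3 UMIs would be present there at the level of the other nuclei (MCAM and ITM2A among the genes named below), and 14 of the 59 higher genes had under 3 UMIs. For those genes the count rests on the other 8 animals. Cluster 5 lay on the same side of the other nuclei for all of these genes. The mean level of all 59 higher genes increased from cluster 0 through 3 and 5 to 10, and that of 72 of the 76 lower genes decreased, where 16.5% and 15.2% of all genes counted did. The rule itself sets the cluster 10 end of that order, so nothing is read from the difference. The median log2 ratio of the higher genes was 2.08 against all other oligodendrocyte nuclei and 0.48 against cluster 5 alone, and that of the lower genes was -2.53 and -0.51. Against cluster 5 alone 4282 genes could be counted, since both sums of Saline replicate 3 are small, and 0 passed. Against cluster 3 alone 10 of 4655 did. Without that animal 9068 genes could be counted against cluster 5, an alternative added after seeing the data, and 5 passed, BACE2 and NCEH1 as higher and KCNK10, PRKCQ and PALM2AKAP2 as lower. Those 2 higher genes were past 2-fold in all 9 animals where the UMI minimum is set aside. Against all other oligodendrocyte nuclei, the rule counted 254 genes without Saline replicate 3. Leaving it out moved the median log2 ratios of the genes named below by at most 0.36 (NOX4). Against other nuclei of like depth in the same animal (within the interquartile range of cluster 10, an alternative added after seeing the data) the rule counted 69 of 8014 genes.

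THSD7B and BACE2 had the highest ratios in the least favourable animal. THSD7B stood at 212, 682 and 362 CPM in the saline animals, 436, 231 and 462 in the ASO animals, and 544, 567 and 622 in the OTV animals, while the other oligodendrocyte nuclei held 6.0 to 72.2 CPM. The lowest cluster 10 value exceeded the highest value elsewhere, the median log2 ratio was 4.36, and against cluster 5 it was 2.74, the most cluster 10 held over its nearest neighbour among the named genes. After thinning to 1000 UMIs, the median animal had a THSD7B transcript in 31.0% of cluster 10 nuclei (60.9% unthinned), 3.70% of cluster 5, 0.633% of cluster 1 and 0.811% of myeloid nuclei, a type that should lack it. BACE2, a protease related to the beta-secretase of amyloid precursor protein, stood at 58.0, 80.3 and 19.0 CPM, then 102, 74.4 and 22.7 CPM, then 169, 187 and 142 CPM in the same group order, against 0.843 to 15.6 CPM in the other nuclei. Its median log2 ratio was 3.86 (1.75 against cluster 5), its value in Saline replicate 3 was 1 UMI, and it fell short of the 10-UMI minimum there, as did MBOAT1 and C2CD2. Thinned to 1000 UMIs, BACE2 was seen in 6.38% of cluster 10 nuclei and 8.64% of myeloid nuclei, whose own mean level was 83.5 CPM against 95 CPM in cluster 10.

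The other genes named as higher covered cytoskeleton, signalling, lipid and surface functions. GSN, which encodes the actin-severing protein gelsolin, stood at 855, 849 and 666 CPM in the saline animals, 1126, 982 and 876 in the ASO animals and 1224, 1290.4 and 1145 in the OTV animals, against 69.8 to 316 CPM elsewhere (median log2 ratio 2.03, and 0.46 against cluster 5). It was the most abundant of the 20 genes named as higher. Signalling genes were PTPRT, a receptor tyrosine phosphatase (mean 656 ± 279 CPM against 87.7 ± 56.4, SD, n = 9 animals), RGS6, a regulator of G protein signalling (530 ± 307 against 75.7 ± 69.0), and FGD3, a guanine nucleotide exchange factor (121 ± 114 against 12.1 ± 16.5). Lipid and redox enzymes were NCEH1, a neutral cholesterol ester hydrolase (129 ± 81.7 against 12.3 ± 11.1 CPM), MBOAT1, a lysophospholipid acyltransferase (118 ± 31.3 against 9.41 ± 4.97), and NOX4, an NADPH oxidase (122 ± 41.7 against 23.5 ± 13.2). Surface and extracellular genes were HS3ST5, a heparan sulfate sulfotransferase (760 ± 236 against 146 ± 77.9 CPM), and SDK2, an immunoglobulin-type adhesion gene (312 ± 119 against 41.6 ± 17.4). The remaining 9, among them BCAT1, a branched-chain aminotransferase, and JPH1, a junctophilin, had median log2 ratios from 2.11 (DLG5) to 3.02 (C2CD2). Several of the 20 exceeded their cluster 10 level in another cell type. PTPRT stood at 792 CPM in OPCs and RGS6 at 1437 CPM in astrocytes. MMD2 had 1029.5 CPM in astrocytes (220 in cluster 10) and DLG5 92.9 (48.2). FGD3 had 197 CPM in myeloid nuclei (121 in cluster 10) and PLEKHA6 246 in neurons (228).

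Genes low in cluster 10 were led by ZFPM2, a cofactor of GATA transcription factors, and ERC2, a scaffold of the presynaptic active zone. ZFPM2 stood at 4.04, 7.35 and 0 CPM in the saline animals, 5.87, 6.42 and 11.7 in the ASO animals, and 17.2, 22.3 and 13 in the OTV animals, against 158 to 377 CPM in the other oligodendrocyte nuclei. The median log2 ratio was -4.90, and no animal overlapped between the 2 populations. ERC2 stood at 9.77, 10.0 and 76.1 CPM, then 7.34, 5.80 and 9.74 CPM, then 22.1, 25.5 and 20.6 CPM, against 192 to 773 CPM elsewhere, with the highest cluster 10 value in Saline replicate 3. KANK1 (median log2 ratio -4.51), FRY (-4.40), CDH7, a cadherin (-3.98), NTN4, a netrin (-3.87), PLCL2 (-3.72), PRUNE2 (-3.42), MCAM, a cell adhesion receptor (-3.10), and ITM2A (-2.66) completed the 10 named. Against cluster 5 these genes lay much closer, with median log2 ratios from -0.96 (FRY) to 0.00 (NTN4), -0.18 for ZFPM2 and -0.25 for ERC2. For 5 of the 10 the ratio to cluster 5 was above 0 in some animals and below 0 in others. ZFPM2 is a gene of precursors as well, with a mean of 668 CPM in OPCs.

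**Figure D3:**
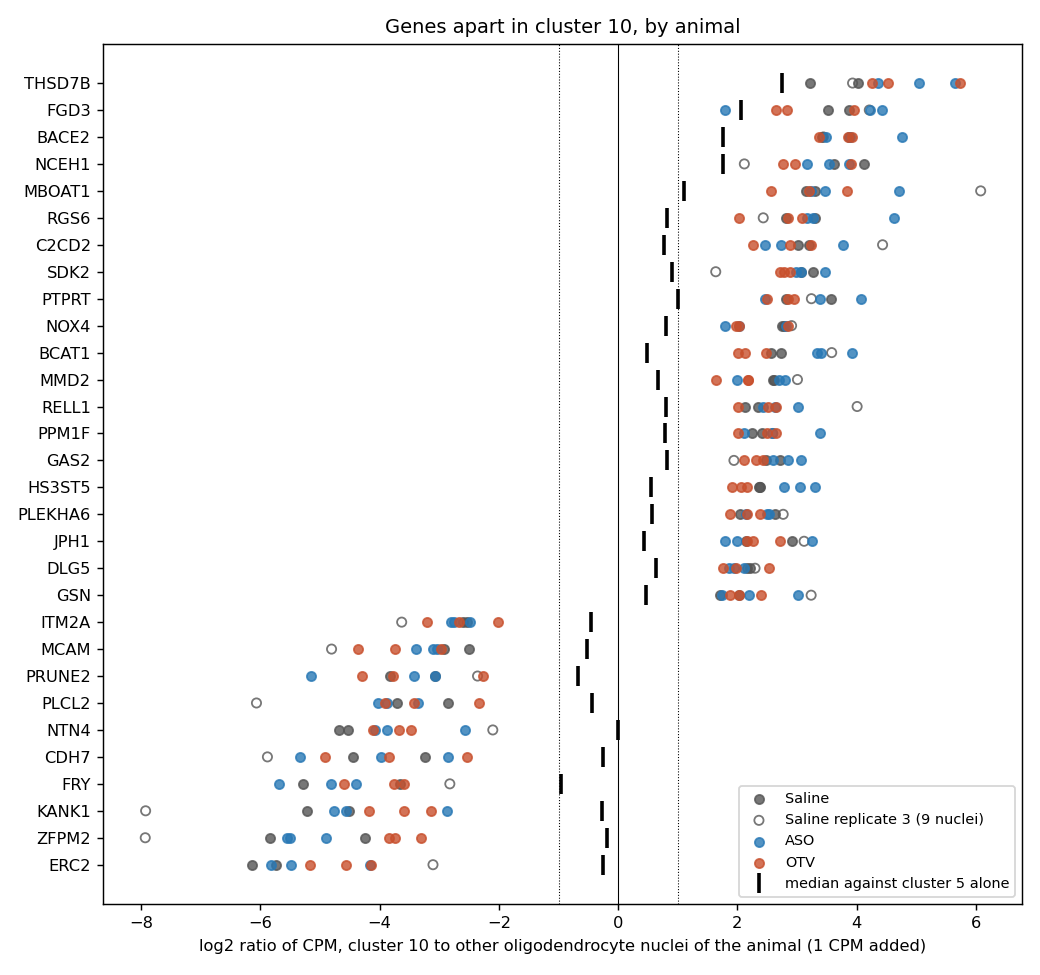
Log2 ratio of CPM in cluster 10 to CPM in the other oligodendrocyte nuclei in each of the 9 animals (circles; Saline replicate 3, with 9 nuclei, is open) for the 20 genes named as higher and the 10 named as lower, with black ticks for the median ratio against cluster 5 and dotted lines at 2-fold. All circles lie beyond 2-fold, from a median of 4.36 for THSD7B to -5.16 for ERC2, and the ticks lie much nearer to 0.

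In the gene lists, 0 of the 16 oligodendrocyte markers passed 2-fold in all animals, where 0.478% of all genes passed as higher and 0.616% as lower, and the markers divided: MOBP, a structural myelin protein (median log2 ratio 0.55), TF, transferrin (0.62), and UGT8, which makes galactosylceramide (0.28), were higher in 9 of 9 animals, and MOG (-0.24), MAG (-0.26) and the lineage factor OLIG2 (-1.34) lower in 9 of 9. ENPP6, a choline phosphodiesterase listed for newly formed oligodendrocytes, was higher in every animal (260 ± 43.7 against 88.3 ± 23.1 CPM). GPR17, which marks that stage more narrowly, was lower in every animal, at 1.85 ± 1.30 against 4.10 ± 2.26 CPM. Genes of synaptic and axonal contact were lower as a list: their summed level was 6712 to 12656 CPM in cluster 10 and 13073 to 18263 CPM in the other nuclei, lower in 9 of 9 animals (6712 to 10389 CPM in cluster 10 without Saline replicate 3). Of the 10 measured members, the adhesion genes CNTN1, CADM2 and NLGN1 were the 3 that passed 2-fold in every animal, all as lower, where 0.616% of all genes did. Since the clustering used these genes, nothing is read from that share.

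CNTN1, contactin 1, stood at 18.2, 21.2 and 171 CPM in cluster 10 of the saline animals, 16.4, 10.4 and 18.2 in the ASO animals and 65.8, 71.2 and 47.4 in the OTV animals, against 660 to 1281 CPM in the other oligodendrocyte nuclei. CADM2 stood at 66.1, 172 and 1503 CPM, then 74.6, 61.5 and 104 CPM, then 416, 312 and 83.1 CPM, against 1411 to 4289.9 CPM elsewhere. In both genes the 9 nuclei of Saline replicate 3 gave the highest cluster 10 value. OPALIN and SOX6 shared that feature (399.6 CPM against 15.1 to 140.0 in the other 8 animals for OPALIN, and 133 against 4.1 to 17.2 CPM for SOX6), and OPALIN passed 2-fold only without that animal, with ratios from -4.60 to -2.42 in the other 8 and -0.89 in it. After thinning to 1000 UMIs, the median animal had CNTN1 in 3.47% of cluster 10 nuclei, 4.45% of myeloid nuclei and 76.1% of cluster 1. Its detection in cluster 10 was thus no higher than in myeloid nuclei. Before thinning, myeloid nuclei were shallower (median 3900 UMIs against 11308), and the part of background in these levels was not tested. OPALIN gave 4.51% in cluster 10, 4.65% in myeloid nuclei and 53.9% in cluster 1. Genes of myelin lipid synthesis summed to 870 to 1089 CPM in cluster 10 and 887 to 1065 CPM elsewhere. By the ratio of summed levels the synaptic and axonal contact list had a median of -0.85 log2 units, the pan-neuronal list -1.28 and the excitatory neuron list 1.19. The list of stressed or reactive oligodendrocytes had -0.93 and summed to 342 to 875 against 743 to 1474 CPM (342 to 729 without Saline replicate 3), with SGK1, a stress-responsive kinase, as its main member (515 ± 166 against 968 ± 227 CPM).

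MALAT1, the target of both agents, took a smaller share of cluster 10 UMIs in treated animals. The share was 6.04%, 5.67% and 5.76% in the saline animals, 4.89%, 4.60% and 5.26% in the ASO animals, and 4.13%, 3.47% and 2.77% in the OTV animals. The 3 groups did not overlap, with means of 5.82% ± 0.192 (SD, n = 3) after saline, 4.92% ± 0.329 after ASO and 3.46% ± 0.680 after OTV, or 84.5% and 59.4% of the saline mean. The difference among the 3 groups gave p = 0.00357 in an exact permutation test over 280 partitions of the 9 animals, the smallest p the design allows (0.00714 adjusted over the 2 MALAT1 tests), and each pair of groups gave the smallest p possible for 3 against 3, 0.1. Without Saline replicate 3 the exact permutation p over the 3 groups was 0.00714. In the gene-by-gene fit without Saline replicate 3, edgeR's quasi-likelihood test after Benjamini-Hochberg adjustment put cluster 10 MALAT1 after OTV at -0.72 log2 units from saline (adjusted p = 0.0200, SE 0.16). ASO lay at -0.30 from saline (adjusted p = 0.679, SE 0.16) and OTV at -0.42 from ASO (adjusted p = 0.0761, SE 0.15) by edgeR. Leaving out Saline replicate 1, Saline replicate 2 or OTV replicate 2 raised the first of these above 0.05, to at most 0.137.

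The other oligodendrocyte nuclei of the same animals had MALAT1 shares of 6.44%, 6.94% and 6.49% after saline, 4.71%, 4.20% and 5.73% after ASO, and 3.94%, 3.46% and 3.05% after OTV, or 73.7% and 52.6% of their saline mean. Cluster 10 was below them in the saline animals by 0.19 ± 0.0997 log2 units (SD, n = 3) and within 0.02 on average after ASO (0.02 ± 0.132) and OTV (-0.02 ± 0.106). The test of this difference over the 3 groups did not pass, with an exact permutation p of 0.182, and of 0.282 without Saline replicate 3. The gene-by-gene test of the difference in response gave 0.20 (SE 0.11, adjusted p = 1) for ASO and 0.10 (SE 0.11, adjusted p = 0.877) for OTV by edgeR's quasi-likelihood test after Benjamini-Hochberg adjustment. TFRC, the receptor that OTV binds, was low, at 10.8 to 17 CPM in the 8 fitted animals, and it did not pass in any comparison.

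**Figure D4:**
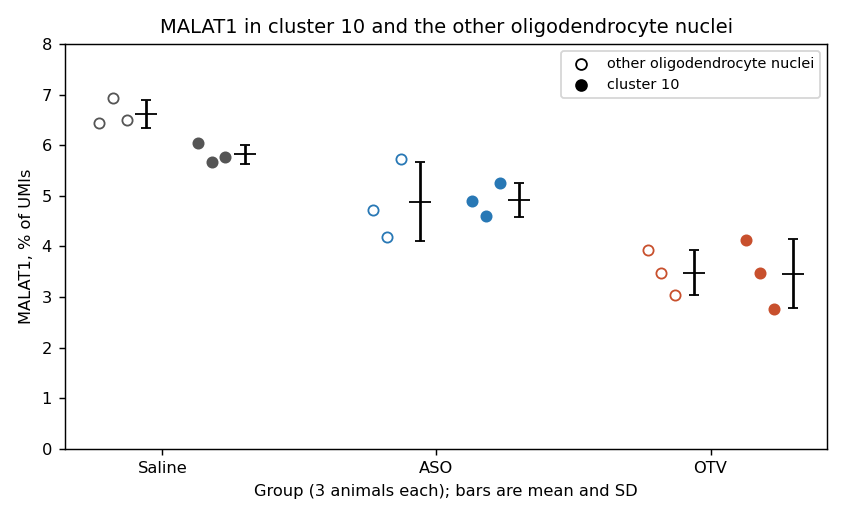
MALAT1 as a percentage of all UMIs in cluster 10 (filled) and in the other oligodendrocyte nuclei (open) of each animal, with the mean and SD of 3 animals per group. Cluster 10 falls from 5.67% to 6.04% after saline to 4.60% to 5.26% after ASO and 2.77% to 4.13% after OTV, with no overlap between groups.

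The wider response was tested gene by gene on the summed counts of cluster 10 in 8 animals (2 saline, 3 ASO, 3 OTV) over 12669 genes with edgeR's quasi-likelihood test and Benjamini-Hochberg adjustment, called at an adjusted p under 0.05. After intrathecal ASO, 5 genes were higher (0.0395%) and 29 lower (0.229%) than after saline, and 7 of these 34 have no symbol. The lower genes held 7 of the 12 mitochondrially encoded transcripts tested (ND2, COX1, COX2, COX3, ND3, ND5 and CYTB), which encode subunits of the respiratory chain and are transcribed outside the nucleus. COX3 stood at 57.0 and 32.9 CPM in the saline animals, 2.45, 2.49 and 3.25 in the ASO animals and 258, 184 and 154 in the OTV animals (ASO against saline -4.13, SE 0.36, adjusted p = 0.00369 by edgeR). Among these 8 animals the 3 groups did not overlap, and the ASO animals were lowest. Saline replicate 3, outside the fit, had no COX3 UMI in cluster 10, where 3 counts of its total would be 57.1 CPM. CYTB had 188 UMIs in the saline sums, 0 in the ASO sums and 512 in the OTV sums, so that at a floor of 3 counts over the group it was at least 103-fold lower after ASO than after saline. The other oligodendrocyte nuclei of these animals fell in COX3 as well (-4.61, SE 0.54, adjusted p = 0.0217 by edgeR). Of the 7 calls, only COX3 held in each of the 16 alternative fits. A fit with at least 20 nuclei is counted among the alternatives of each treatment contrast, but it dropped no animal and so repeats the main fit. CYTB was lost without ASO replicate 2, OTV replicate 2 or OTV replicate 3 and with the OTV animals left out of the fit (adjusted p up to 0.0594) and COX2 without ASO replicate 2 (0.0591), and ND2, ND3, ND5 and COX1 were lost in 5 to 10 of them.

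Nuclear genes that changed after ASO were few. CREB3L2, a bZIP transcription factor of the endoplasmic reticulum, stood at 77.2 and 106 CPM in the saline animals, 28.9, 21.8 and 22.7 in the ASO animals and 93.2, 62.7 and 68.0 in the OTV animals (-1.95, SE 0.23, adjusted p = 0.0134 by edgeR's quasi-likelihood test after Benjamini-Hochberg adjustment). The ASO animals lay below all others, and the other oligodendrocyte nuclei gave -0.78 (adjusted p = 0.162). DTX1, a ubiquitin ligase of the Notch pathway, stood at 27.0 and 26.5 CPM after saline, 0.734, 0.829 and 2.60 after ASO and 0.291, 0 and 0 after OTV (-4.58, SE 0.46, adjusted p = 0.00369 by edgeR for ASO). Saline replicate 3, which the fit leaves out, had no DTX1 UMI in cluster 10 and 1.48 CPM in its other oligodendrocyte nuclei, so the high values come from 2 animals. The ASO call was lost with thinned sums (adjusted p = 0.0512 by edgeR). FSTL1, a secreted follistatin-like protein, stood at 16.2 and 10.9 CPM after saline, 0.245, 0.414 and 0.649 after ASO and 79.8, 61.6 and 31.6 after OTV (-5.02, SE 0.60, adjusted p = 0.0134 by edgeR for ASO, lost without ASO replicate 1 or ASO replicate 2, with adjusted p up to 0.0591, and with sums thinned to the smallest total, 0.157). RIMBP2, a binding partner of presynaptic RIM proteins, was higher, at 4.38 and 4.71 CPM after saline and 107, 78.3 and 35.1 after ASO (3.98, SE 0.53, adjusted p = 0.0283 by edgeR). GIPR, an incretin receptor, was at 0 and 1.18 CPM after saline and 18.8, 14.5 and 9.74 CPM after ASO (4.42, SE 0.74, adjusted p = 0.0406 by edgeR). The calls of RIMBP2 and GIPR were lost in 7 and 10 of 16 alternative fits, including those without Saline replicate 1 (adjusted p 0.228 and 0.177). Of the 16 oligodendrocyte markers, 0 were called between ASO and saline by edgeR, in a fit that called 0.268% of all genes and where 1097 had an unadjusted p under 0.05. At that share a count of 0 among 16 says nothing particular about these markers.

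After intravenous OTV, 368 genes were higher (2.90%) and 783 lower (6.18%) than after saline, 1151 in all, of which 484 have no symbol. The count came to 447 without Saline replicate 1 (89 higher, 358 lower), 462 without Saline replicate 2 (67 and 395) and 697 without OTV replicate 3 (200 and 497). ACADS, short-chain acyl-CoA dehydrogenase of mitochondrial fatty acid oxidation, stood at 289 and 278 CPM after saline, 339, 249.8 and 409.6 after ASO and 55.6, 59.5 and 38.5 after OTV (-2.43, SE 0.22, adjusted p = 0.000462 by edgeR's quasi-likelihood test after Benjamini-Hochberg adjustment). RASGRP1, an exchange factor that activates Ras, stood at 109.5 and 97.9 CPM after saline, 152, 113 and 167 after ASO and 26.8, 28.7 and 30.2 after OTV (-1.83, SE 0.18, adjusted p = 0.000516 by edgeR). In both genes the OTV animals lay well below all others. BTD, biotinidase, fell likewise by 1.72 and MCMDC2 by 2.10, and DTX1 had 1 UMI in the 3 OTV sums. IPO13, a nuclear transport receptor, was higher, at 62.4 and 58.2 CPM after saline, 54.6, 63.2 and 62.3 after ASO and 136, 140.3 and 135 after OTV (1.22, SE 0.15, adjusted p = 0.00101 by edgeR). KAT2A, a histone acetyltransferase (1.58), HIVEP3 (1.16), TMEM120B (1.61) and COX3 (2.19) also rose. The other oligodendrocyte nuclei moved by like amounts, -2.70 for ACADS, -2.10 for RASGRP1 and 1.23 for IPO13.

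Of the 16 oligodendrocyte markers in cluster 10, 2 fell and 1 rose after OTV relative to saline, where 6.18% of all genes fell and 2.90% rose, with a list median of 0.00 against 0.01 over all genes. MOG, a surface glycoprotein of the outer myelin, stood at 876 and 755 CPM after saline, 848, 776 and 949 after ASO and 551, 502 and 486 after OTV (-0.64, SE 0.14, adjusted p = 0.0154 by edgeR's quasi-likelihood test after Benjamini-Hochberg adjustment). CLDN11, the tight junction protein of myelin, stood at 437 and 349, then 308, 383 and 565, then 205, 199.8 and 179.9 CPM (-0.98, SE 0.22, adjusted p = 0.0212 by edgeR), and RNF220, a ubiquitin ligase, rose by 0.52 (SE 0.11, adjusted p = 0.0161 by edgeR). These 3 calls were lost without Saline replicate 1 (adjusted p 0.154, 0.153 and 0.0832), CLDN11 also without each OTV animal in turn (0.0568 to 0.0836), RNF220 also without Saline replicate 2 (0.159), and MOG also with Saline replicate 3 included (0.0774). OPALIN fell from 72.8 and 140.0 CPM to 21.0, 15.9 and 15.1 (-2.53, SE 0.45, adjusted p = 0.0131 by edgeR), with 65.6, 30.2 and 85.7 after ASO, and against -1.0 in the other oligodendrocyte nuclei. That call was lost without Saline replicate 2 (0.0570) or OTV replicate 3 (0.0546). The test of the difference in OTV response between cluster 10 and the other nuclei, described below, did not call OPALIN. In the median animal, OPALIN detection in cluster 10 was at the myeloid level given above. Over the animals it ran from 1.15% to 16.3% of thinned cluster 10 nuclei and from 2.67% to 8.37% of myeloid nuclei.

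In the interferon and antigen presentation list, 2 of 6 tested genes fell after OTV and none rose, against the same 6.18% and 2.90% of all genes. B2M, the light chain of MHC class I, was 1 of them and fell by 1.78 (SE 0.32, adjusted p = 0.00594 by edgeR's quasi-likelihood test after Benjamini-Hochberg adjustment), from 38.8 and 36.5 CPM to 12.2, 5.31 and 12.4. In the other oligodendrocyte nuclei it fell by 1.40. Of 10 tested genes of synaptic and axonal contact, NFASC (0.62, adjusted p = 0.0277 by edgeR), CNTN2 (0.54, 0.0459) and CNTN1 (1.67, 0.00424) rose, with losses of the call in 5, 11 and 1 of 16 alternative fits, and IL1RAPL1 fell, again against 2.90% and 6.18% of all genes. No astrocyte, OPC, microglial or endothelial marker was called between OTV and saline in cluster 10 by edgeR, in a fit where 3147 genes had an unadjusted p under 0.05. The lists had 10, 10, 6 and 4 genes tested in that order. Their median log2 changes were 0.41, 0.77, 0.33 and -0.085, against 0.01 over all genes, so the absence of calls does not show that these markers stayed level. In other lists, where 6.18% of all genes fell, APOD fell with OPALIN (2 of 14 tested genes of mature subtypes). SKAP1 (1 of 2 lymphocyte genes tested), KCNQ5 (1 of 11 pan-neuronal), GAD1 (1 of 2 inhibitory) and MYH11 (1 of 3 mural) also fell. Of 12 mitochondrially encoded transcripts tested, ND2, COX1, ATP8, COX3 and ND5 rose, where 2.90% of all genes did. GAD1 and COX3 held in all 16 alternative fits. The call was lost in 10 of 16 for COX1, 7 for ATP8, 4 for APOD (adjusted p up to 0.257 by edgeR), 3 each for ND2, SKAP1 and MYH11, 1 for ND5, and 3 of 14 for KCNQ5.

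Between OTV and ASO, 873 genes were higher after OTV (6.89%) and 1249 lower (9.86%), in a comparison that shares its animals with those above. All 12 mitochondrially encoded transcripts tested were higher after OTV, CYTB at least 306-fold at the floor of 3 counts. The other oligodendrocyte nuclei moved as well, by 5.96 for ATP6 (6.19 in cluster 10) and 6.55 for ATP8 (7.77). In the response differences from saline described below, 0 of 13 such transcripts were called for ASO or OTV, where 0.147% and 0.188% of all genes were. At those shares a count of 0 says nothing particular. RPS6, a ribosomal protein, stood at 127, 114 and 169 CPM after ASO and 34.1, 35.1 and 28.8 after OTV (-1.96, SE 0.17, adjusted p = 0.000132 by edgeR's quasi-likelihood test after Benjamini-Hochberg adjustment), and MAMDC2 fell by 3.05, from 37.2, 31.1 and 40.9 to 4.37, 3.19 and 4.12 CPM. ACADS (-2.61), RASGRP1 (-2.24) and IL1RAPL1 (-1.65) were lower and FSTL1 (7.17) and IPO13 (1.27) higher. Some markers of other cell types were called here, against the 6.89% and 9.86% of all genes: of 10 tested in the OPC list, TNR, PCDH15, NEU4 and LUZP2 were higher and MEGF11 lower. SLC4A4 of astrocytes, TBXAS1 of microglia, CD3E of lymphocytes, GRIN2B, NRG3 and RORB of neurons, ACTA2 of mural cells and CFAP43 of ependymal cells were higher. SKAP1, CELF4 and GAD1 were lower, as was SERPINB1 of the list of mature oligodendrocyte subtypes. Calls were lost in 10 of 15 alternative fits for GRIN2B, 8 of 16 for MEGF11, 7 of 13 for NEU4, 6 of 16 for CD3E, 5 of 14 for TNR and SERPINB1, 4 of 16 for SLC4A4, 3 of 16 for TBXAS1 and 2 of 16 for NRG3. PCDH15 rose from 7.34, 7.66 and 8.44 CPM to 26.2, 18.1 and 23.3, and RORB, a nuclear receptor gene of thalamic and cortical neurons, from 24.0, 27.3 and 3.89 to 182, 76.5 and 187 CPM (2.98, SE 0.70, adjusted p = 0.0331 by edgeR, lost without any of ASO replicates 1 and 2 and OTV replicates 1 and 3). The summed OPC, astrocyte, microglial and neuronal markers ran from 280 to 856, 177 to 704, 28.6 to 93.7 and 53.1 to 533 CPM in cluster 10 over all animals (without Saline replicate 3 the highest were 459, 338, 93.7 and 183 CPM). Their part in the response was not tested.

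Some of the genes named for cluster 10 were called after OTV. Of the 20 genes named as higher, 0 were called between ASO and saline by edgeR (0.268% of all genes were), and 4 were higher after OTV than after saline, where 2.90% of all genes were. PPM1F (1.19, adjusted p = 0.0181), PLEKHA6 (1.13, 0.00877), GSN (0.55, 0.0313) and MMD2 (1.60, 0.0123) were the 4, by edgeR's quasi-likelihood test after Benjamini-Hochberg adjustment. Alternative fits are not given for these 4 calls, and the 20 genes were named from the same animals, so nothing is read from that share. Between OTV and ASO, HS3ST5 (0.65, adjusted p = 0.0351), PLEKHA6 (0.63, 0.0405), DLG5 (0.74, 0.0441) and FGD3 were higher and MBOAT1 (-0.61, 0.0476) lower after OTV by edgeR, where 6.89% of all genes were higher and 9.86% lower. FGD3 ranged most between groups, at 35.4 and 78.2 CPM in the fitted saline animals, 48.9, 36.0 and 5.19 after ASO and 289.9, 263 and 259.6 after OTV (3.15 for OTV against ASO, adjusted p = 0.0191 by edgeR). The OTV animals did not overlap the rest, but FGD3 was not called between OTV and saline (2.28, adjusted p = 0.101 by edgeR). In the other oligodendrocyte nuclei FGD3 stood at 2.16 and 4.42 CPM after saline, 1.34, 0.979 and 0.779 after ASO and 39.7, 16.0 and 40.5 after OTV. Of the 10 genes named as lower, ZFPM2 (1.62, adjusted p = 0.0332) and ERC2 (1.22, 0.0229) were higher after OTV than after saline by edgeR, and both were also higher than after ASO (1.28 and 1.70). Over all groups, neither was higher in cluster 10 than in myeloid nuclei. ZFPM2 averaged 9.77 CPM in cluster 10 and 25.5 CPM in myeloid nuclei. ERC2 was seen in 1.15% of thinned cluster 10 nuclei and 1.69% of myeloid nuclei in the median animal. The part of background in these levels was not tested, and alternative fits are not given for the ZFPM2 and ERC2 calls. For OTV, the difference in response from the other nuclei, given below, was called for 0 of the 20 and 0 of the 10 genes. Over all genes 0.0469% were called there as higher and 0.141% as lower, so these counts of 0 say nothing particular.

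Whether cluster 10 responded differently from the other oligodendrocyte nuclei was tested within animals, as the change in the log2 ratio of cluster 10 to the other nuclei, over 17056 genes. The ASO response differed for 25 genes, 8 with a higher ratio after ASO (0.0469%) and 17 with a lower one (0.0997%). The OTV response differed for 32, 8 higher (0.0469%) and 24 lower (0.141%). The mix behind the comparator was not equal in all animals: OTV replicate 1 had 22.9% of its oligodendrocyte nuclei in cluster 8 and 9.06% in cluster 0, where the other 8 animals had 0.0178% to 3.82% and 25.2% to 35.5%, and cluster 3 made up 4.48% in ASO replicate 3 and 6.05% in Saline replicate 3 against 11.8% to 15.1% elsewhere. The part of this mix in the differences was not tested. With cluster 5 alone as the comparator, an alternative added after seeing the data, 8 and 16 genes were called. Of these, 1 (HS3ST5) and 7 were shared with the sets above. Both comparisons use the same cluster 10 sums, and cluster 5 is among the other nuclei.

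CNTN1 gave the lowest adjusted p for OTV, from low levels in cluster 10. Over all groups, its detection there was no higher than in myeloid nuclei (3.47% of thinned nuclei against 4.45% in the median animal). The part of background was not tested by group. In cluster 10 it stood at 18.2 and 21.2 CPM after saline, 16.4, 10.4 and 18.2 after ASO and 65.8, 71.2 and 47.4 after OTV, while the other nuclei stood at 1281 and 940.0, then 987, 765 and 919, then 1204, 953 and 822 CPM. The fitted difference was 1.69 (SE 0.18, adjusted p = 1.23e-05 by edgeR's quasi-likelihood test after Benjamini-Hochberg adjustment) and 0.86 against cluster 5 (adjusted p = 0.0498). With Saline replicate 3 included, whose 9 nuclei gave 171 CPM, the call was lost (adjusted p = 0.486). L3MBTL4, a chromatin-binding protein of the MBT family, stood at 3.03 and 2.94 CPM after saline, 6.12, 2.28 and 10.4 after ASO and 218, 50 and 124 after OTV, against 11.4, 5.57 and 6.42 after OTV in the other nuclei (3.59, SE 0.42, adjusted p = 0.000569 by edgeR). PCDH7, a protocadherin, stood at 11.8 and 11.5 CPM after saline, 6.12, 2.69 and 14.9 after ASO and 32.9, 42.5 and 38.5 after OTV, while the other nuclei went from 335 and 252 to 217, 217 and 148 CPM (2.19, SE 0.25, adjusted p = 0.00073 by edgeR). Against cluster 5, L3MBTL4 gave 1.33 (adjusted p = 0.574) and PCDH7 0.58 (adjusted p = 0.713) by edgeR, so neither was called. PCDH7 had 76.1 CPM in the 9 nuclei of Saline replicate 3.

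Among the named genes with a lower ratio to the other nuclei after OTV, IL1RAPL1 had the lowest adjusted p. This gene encodes a synaptic adhesion protein related to the interleukin-1 receptor. It stood at 3163 and 3035 CPM after saline, 4379.8, 4934 and 5409 after ASO and 1204, 1692 and 1554 after OTV, while the other nuclei stood at 5175 and 5464, then 6671, 7099.9 and 6721, then 4199.6, 4565 and 3872 CPM. The difference was -0.81 (SE 0.12, adjusted p = 0.000614 by edgeR's quasi-likelihood test after Benjamini-Hochberg adjustment), and -0.32 against cluster 5 (adjusted p = 0.0896). LRRTM3, a leucine-rich synaptic organiser, stood at 427 and 471 CPM after saline and 90.8, 122 and 47.4 after OTV (-0.88, SE 0.14, adjusted p = 0.00302 by edgeR), but gave 0.03 against cluster 5. RELN, the secreted glycoprotein reelin, stood at 665 and 624 CPM after saline, 447, 677 and 448 after ASO and 241, 467 and 284 after OTV, against 539.6, 613 and 552 in the other nuclei after OTV (-0.93, SE 0.15, adjusted p = 0.00866 by edgeR, and -0.60 with 5.8e-05 against cluster 5). The RELN call was lost without ASO replicate 1 (0.0510) or OTV replicate 3 (0.449). It was also lost with DESeq2 size factors (0.117), with thinned sums (0.325) and among nuclei at or under the median doublet score (0.674). ACSS2, a cytosolic acetyl-CoA synthetase (-1.01, SE 0.17, adjusted p = 0.00312 by edgeR), and HIP1R, an adaptor of clathrin and actin (-0.85, SE 0.15, adjusted p = 0.00423), were also called against cluster 5 (-0.81 and -0.49), and both calls were lost without Saline replicate 1 or OTV replicate 3 (adjusted p up to 0.0790 and 0.103), that of HIP1R also with Saline replicate 3 (0.0570). That of ACSS2 was also lost among nuclei at or under the median doublet score (0.0709). HIP1R stood at 127 and 98.5 CPM in cluster 10 after saline and 116, 115 and 103 after OTV, while the other nuclei went from 143 and 123 to 224, 204 and 253 CPM.

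For ASO, BTNL8, a butyrophilin-like surface protein, and PTN, the secreted growth factor pleiotrophin, had the lowest adjusted p. BTNL8 had higher values after ASO in the other oligodendrocyte nuclei (30.6, 29.4 and 51.8 CPM against 7.09 and 20.6 after saline) and not in cluster 10 (6.12, 4.97 and 3.89 against 5.39 and 25), a difference of -2.77 (SE 0.31, adjusted p = 1.32e-05 by edgeR's quasi-likelihood test after Benjamini-Hochberg adjustment). PTN went from 88.6 and 89.1 CPM after saline to 17.9, 19.9 and 22.7 after ASO in cluster 10, with 26.5, 86.1 and 41.2 after OTV, and from 275 and 248 to 178, 149.5 and 185 CPM in the other nuclei (-1.53, SE 0.17, adjusted p = 2.72e-05 by edgeR). Saline replicate 3 had 0 PTN UMIs in its 9 nuclei, and its inclusion moved the adjusted p to 0.0508. Among nuclei at or under the median doublet score the PTN call was lost (adjusted p = 0.587 by edgeR). KANK4, a cytoskeletal adaptor, had overlapping values in cluster 10 (139 and 120.3 CPM after saline, 53.1, 129 and 164 after ASO) while values after ASO were lower elsewhere (40.1 and 39.1 against 8.28, 18.5 and 16.0 CPM), a difference of 1.22 (SE 0.17, adjusted p = 0.00187 by edgeR). MALT1, a protease of NF-kB signalling, stood at 103 and 131 CPM after saline and 172, 173 and 125 after ASO (0.82, SE 0.14, adjusted p = 0.00469 by edgeR, lost without Saline replicate 2 at 0.0712 and at low doublet scores at 0.133). None of these 4 was called against cluster 5 (BTNL8 -0.58, PTN -0.56, KANK4 0.43 and MALT1 0.30). HS3ST5, named above as high in cluster 10, gave 0.67 (SE 0.13, adjusted p = 0.0317 by edgeR) and was also called against cluster 5. In cluster 10 HS3ST5 stood at 840 and 774 CPM after saline and 573, 874 and 521 after ASO. The other nuclei went from 162 and 147 to 82.7, 87.7 and 61.9 CPM.

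**Figure D5:**
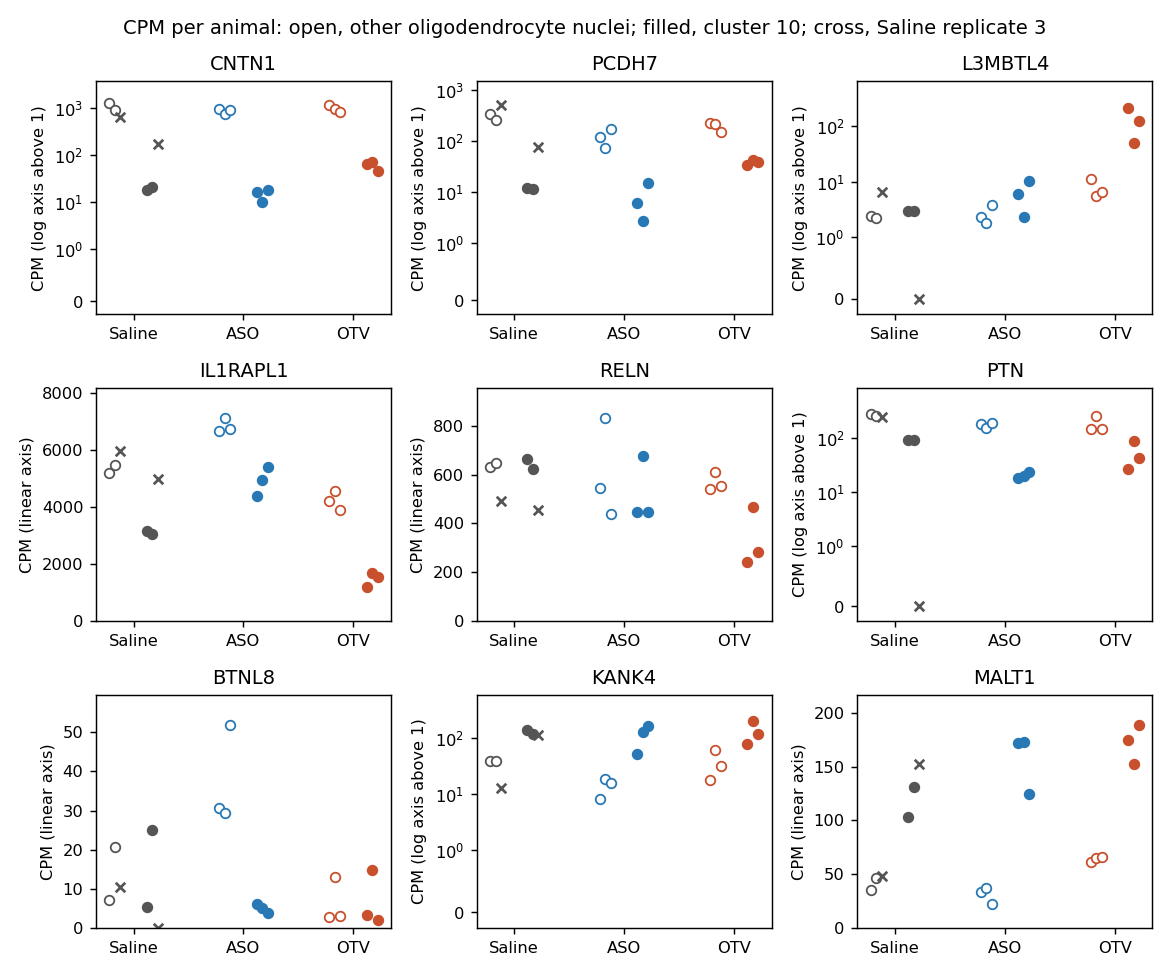
CPM per animal in cluster 10 (filled) and the other oligodendrocyte nuclei (open) for 9 genes whose response differed, with Saline replicate 3 as crosses; CNTN1, PCDH7, L3MBTL4, PTN and KANK4 are on log axes and IL1RAPL1, RELN, BTNL8 and MALT1 on linear axes. CNTN1 in cluster 10 is 47.4 to 71.2 CPM in the OTV animals and 10.4 to 21.2 in the fitted saline and ASO animals, while BTNL8 is 29.4 to 51.8 CPM in the other nuclei of the ASO animals and 3.89 to 6.12 in cluster 10.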

How the data were processed

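Nuclei were sorted by DAPI from frozen tissue and sequenced with 10x Genomics chemistry, per the labels' protocols, which call the tissue mouse although the organism given is Macaca fascicularis. The submitters' processing notes name Cell Ranger 6.1.2, Seurat 4 and a human genome build without a role, while feature identifiers are those of the macaque. For the aligner's settings the sources used here give nothing. The deposited matrix holds raw UMI counts per feature and nucleus, 29128 features, 14893 with a symbol. The authors' deposited table of nuclei gives cluster, cell type and a doublet score per nucleus. Its percent of ribosomal UMIs, also computed by the authors, was not used. The smallest nucleus held 1018 UMIs. Samples were read from the animal number of each nucleus.

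From these, counts were summed per animal for cluster 10 and for the other oligodendrocyte nuclei. Levels are CPM of each sum, and ratios within animals used a pseudocount of 1 CPM. Treatment contrasts were fitted on the sums of 8 animals with edgeR 4.0.16 in R 4.3.3 (trimmed mean scaling, filterByExpr, robust quasi-likelihood fit, Benjamini-Hochberg adjustment over all genes tested), and response differences with an added animal block over both sums. The SE beside an edgeR value is the absolute log2 change divided by the square root of the quasi-likelihood F statistic, not a separate estimate. MALAT1 shares were tested over all 9 animals by exact permutation, two-sided. The fits were also run on simulated counts, with a fixed spread for all genes and no animal effect shared by both sums. The real counts differ in these respects, so that run does not vouch for the calls. Intervals and floors cover counting error only.

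Genes were named by rule: up to 20 higher and 10 lower genes with a symbol and a mean of at least 20 CPM, ranked by the least favourable animal; for each treatment contrast, at most 5 genes that rose and 5 that fell, with groups not overlapping; and called genes of 22 lists (242 genes, 208 measured). The members and lists were chosen with earlier results of these data known. Alternatives were DESeq2 1.42.0, other scaling, no filter, leaving out each animal, thinned sums, low doublet scores and other comparator nuclei. A minimum of 20 nuclei per animal was also counted among them and gave the main fit again. THSD7A and the genes in the plot of cluster order were chosen after their values were seen. Some genes of the lists are counted there and not reported here by name.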

Additional observations from a re-analysis of the deposited data

Results flagged for a closer look

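The response of cluster 10 differed from that of the other oligodendrocyte nuclei of the same animals for 25 genes after ASO and 32 after OTV, each by a test of the difference itself over 8 animals. For OTV, the log2 ratio of cluster 10 to the other nuclei was higher than after saline for L3MBTL4 (3.59), PCDH7 (2.19), CNTN1 (1.69), DNAH17 (1.67) and ANXA4 (1.38), and lower for ACSS2 (-1.01), RELN (-0.93), LRRTM3 (-0.88), HIP1R (-0.85) and IL1RAPL1 (-0.81). For ASO it was higher for ACTN2 (3.65), RAG1 (2.56), KANK4 (1.22), SCNN1B (1.04) and MALT1 (0.82), and lower for BTNL8 (-2.77), SPEF2 (-1.84), PTN (-1.53), DTHD1 (-1.40) and PCDH10 (-1.03). ACTN2 had 379.9 CPM in cluster 10 of ASO replicate 1 against 12.2 and 24.7 CPM in the other ASO animals. Its log2 ratio to the other nuclei was alike in these animals, at 2.37, 2.61 and 2.56. The fitted saline animals held 3 and 0 ACTN2 UMIs in cluster 10, and the call was lost in 7 of 15 alternative fits. ANXA4 was lost without OTV replicate 1, DNAH17, PCDH10 and SCNN1B without Saline replicate 1, SPEF2 without ASO replicate 3, and RAG1 without Saline replicate 1, Saline replicate 2 or ASO replicate 2. With thinned sums the calls of ANXA4 (adjusted p = 0.0937 by edgeR), DNAH17 (0.159), SCNN1B (0.136) and RAG1 (0.321) were lost, and that of RAG1 also with the DESeq2 Wald test (0.0848). Against cluster 5 alone, only CNTN1, ACSS2, RELN and HIP1R of the 20 genes named here were called, with ANXA4 at 0.43 (adjusted p = 0.798 by edgeR) and DNAH17 at 0.27 (0.959). Among nuclei at or under the median doublet score, the calls of DTHD1 (-0.51, adjusted p = 1 by edgeR) and PCDH10 (-0.78, adjusted p = 0.348 by edgeR) were lost as well.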

How the results depend on the processing

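No pairing of animals between treatment groups was possible because replicate numbers here follow accession order and link no animals between groups. For ASO against saline the 34 genes became 135 with the DESeq2 Wald test, 528 with no filter on low counts, 21 with thinned sums, 57 with Saline replicate 3 included, and 13 to 38 with each animal left out. For OTV against saline the 1151 became 2032 with no filter, 737 with thinned sums, 752 with nuclei at or under the median doublet score, and 447 to 1127 with animals left out. For OTV against ASO the 2122 became 1360 with thinned sums and 1396 to 1840 with animals left out. The 25 ASO response differences became 116 with no filter, 15 with thinned sums, 8 against cluster 5 and 22 to 47 with animals left out. The 32 OTV response differences became 21 with DESeq2 size factors, 177 with no filter, 14 with thinned sums, 62 with low doublet scores, 16 against cluster 5 and 14 (without OTV replicate 3) to 77 (without ASO replicate 3). The 135 of 12343 genes past 2-fold within animals became 10 of 4655 against cluster 3 alone and 0 of 4282 against cluster 5 (5 of 9068 without Saline replicate 3 as well). They became 18 of 2758 against cluster 8, 92 of 8948 against cluster 0, 201 of 8587 against cluster 1 and 178 of 8530 against cluster 2. Against nuclei of like depth 69 of 8014 passed, and 140 to 254 passed with animals left out. The doublet score of 0.00104, a median over nuclei, became 0.0104 as a mean. Against cluster 5, 23 of the 25 ASO and 31 of the 32 OTV response differences kept their sign, and LRRTM3 for OTV (0.035) did not. The ratio of NTN4 turned to 0.0031 there. The following values, none of which passed a test, also changed sign. LTBP3, a gene near the MALAT1 locus, gave 0.21 (low doublet scores), 0.019 (Saline replicate 3 included) and -0.32 to 0.26 (animals left out) for ASO against saline, 0.037 (Saline replicate 3 included) and -0.32 to 0.28 for OTV against saline, and -0.016 (no filter), -0.014 (compared animals only), -0.079 (thinned sums), -0.26 (low doublet scores) and -0.085 to 0.099 for OTV against ASO, and -0.043 to 0.21 for its ASO response difference. TFRC gave 0.0029 (Saline replicate 3 included) and -0.15 to 0.012 for ASO against saline, -0.031 (thinned sums), -0.37 (against cluster 5) and -0.090 to 0.12 for its ASO response difference, and 0.19 (thinned sums) and 0.15 (low doublet scores) for its OTV response difference. The MALAT1 OTV response difference ran from -0.011 to 0.21 with animals left out. The cause of these changes was not tested. Of the values for single genes, 2114 kept direction and side of the threshold, 284 lost their call, 160 moved, 28 changed sign and 2 gained a call.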
